A study of Homo sapiens with 6 samples.

Results

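The circadian clock genes were examined as a set of 10 protein-coding genes chosen by name: the activators CLOCK and ARNTL (BMAL1), the repressors PER1, PER2, PER3, CRY1 and CRY2, the nuclear receptors NR1D1 and NR1D2 (REV-ERB alpha and beta), and the output factor DBP. The 10 are drawn from 23030 genes in the normalized table, and all 10 were among the 9697 genes that passed a minimum of 10 mean normalized CPM (counts scaled to library size) and were tested. The RNA came from T98G, a cell line grown from a human glioblastoma, in 6 libraries, 3 per group (1A, 1B and 1C). The shControl cells had been transduced with a control hairpin and the shDYRK1A cells with a hairpin against the kinase DYRK1A, each expressed from a lentivirus. All were selected with puromycin and left to recover, and a constant amount of Kc167 cells, a line from the fly Drosophila, was added to equal numbers of T98G cells before RNA extraction. The labels name no other genetic change, the cells were sampled at a single time, no step is described that would bring their clocks into phase, and the hairpin sequence behind the shDYRK1A libraries is not stated in them. Since the labels do not say whether the 3 libraries of a group came from separate cultures, the p-values measure only the spread between these libraries, which may be technical.

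In mammalian cells the clock is a feedback loop of transcription. CLOCK and ARNTL pair and switch on genes through E-box elements, among them the PER and CRY genes, whose proteins assemble and return to the nucleus to repress that same pair. In a second loop the REV-ERB proteins repress ARNTL, while DBP acts on D-box elements in the promoters of other clock genes. The loop runs in most cell types, and in a culture that has not been brought into phase each cell keeps its own time, so that the RNA of many cells is an average over the cycle.

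Gene counts summed to between 33708297 and 42154438 per library, and the unmapped share of reads was highest in shDYRK1A 1B, at 15.65% against 8.44 to 11.92% in the other libraries. The values below are counts divided by the size factor that the authors derived from the fly RNA (spike-in normalized counts), which compare RNA per infected cell. On that scale most genes were lower in shDYRK1A: the median log2 fold change of the 9697 genes was -0.40, and 93.6% of them had a negative value. A second scale, TMM (trimmed mean of M values), sets the typical gene to no change, with a median of 0.00, and so reads each gene relative to the others. DYRK1A itself fell to 60.2% of its control level on the spike-in scale, from 2119 ± 194 to 1274 ± 213 normalized counts (SD, n = 3 each). Its log2 fold change was -0.73 (SE 0.147, edgeR quasi-likelihood test, adjusted p = 5.33e-06). With TMM scaling the value was smaller, -0.34 (adjusted p = 0.000591, same test). Its spike-in normalized libraries did not overlap between groups, where 63.6% of all genes tested also had all shDYRK1A libraries below. Of 8 markers listed for a glioblastoma line, 4 passed the expression filter (VIM, CD44, FN1 and EGFR). NES, OLIG2, GFAP and SOX2 did not, and of these the astrocyte marker GFAP and the stem cell factor SOX2 were near 0. Of 12 markers of neurons, leukocytes, endothelium and epithelium none passed the filter and 9 were below 1 CPM, and their summed level was 13.9 to 15.1 CPM in shControl and 8.19 to 10.4 CPM in shDYRK1A.

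Of the 10 clock genes, PER3 was the most reduced in shDYRK1A cells, to 30.1% of its control level, and NR1D2 and CLOCK fell to about the same extent as each other, to 50% and 51.3%. CRY1, NR1D1 and PER2 fell less, to 67.2%, 73.6% and 74.9%. CRY2, PER1, DBP and ARNTL, at 82.2%, 85.6%, 80.3% and 95.3% of control, did not pass the test, and no clock gene rose on the spike-in scale. A gene passed at an adjusted p below 0.05 (Benjamini-Hochberg over the 9697 genes), and it was called when its log2 fold change was also below -0.7 or above 0.7. With spike-in scaling 6 of the 10 passed as lower, beside 63.4% of all genes tested, so the count of members that fell was near that of genes in general. The 3 that were called as lower (PER3, NR1D2 and CLOCK) stood beside 14.3% of all genes, and none passed as higher, where 1.08% of all genes did and 0.278% were called. All 3 shDYRK1A libraries lay below all 3 shControl libraries for 8 of the 10, beside 63.6% of all genes, and none had all its shDYRK1A libraries above, beside 1.59%. The median log2 fold change of the 10 was -0.43, that is 0.03 below the median of all genes.

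Read relative to the other genes, members went both ways, and 6 of the 10 had a negative value with TMM scaling, beside 49.6% of all genes. With TMM scaling PER3, NR1D2, CLOCK and CRY1 passed as lower (4 of 10, beside 28.6% of all genes), of which PER3 was also called (beside 1.93%). ARNTL passed as higher (1 of 10, beside 27.3%), and none was called as higher, where 1.25% of all genes were. The median of the 10 was -0.03 on this scale, against 0.00 for all genes. In plain CPM, which also ignores the fly RNA, the libraries did not overlap with shDYRK1A below for 4 members (beside 29.3% of all genes) and with shDYRK1A above for 3 members, CRY2, PER1 and ARNTL (beside 33.5%). In bulk RNA, fewer cells expressing a gene and less of its RNA per cell cannot be told apart.

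**Figure D1:**
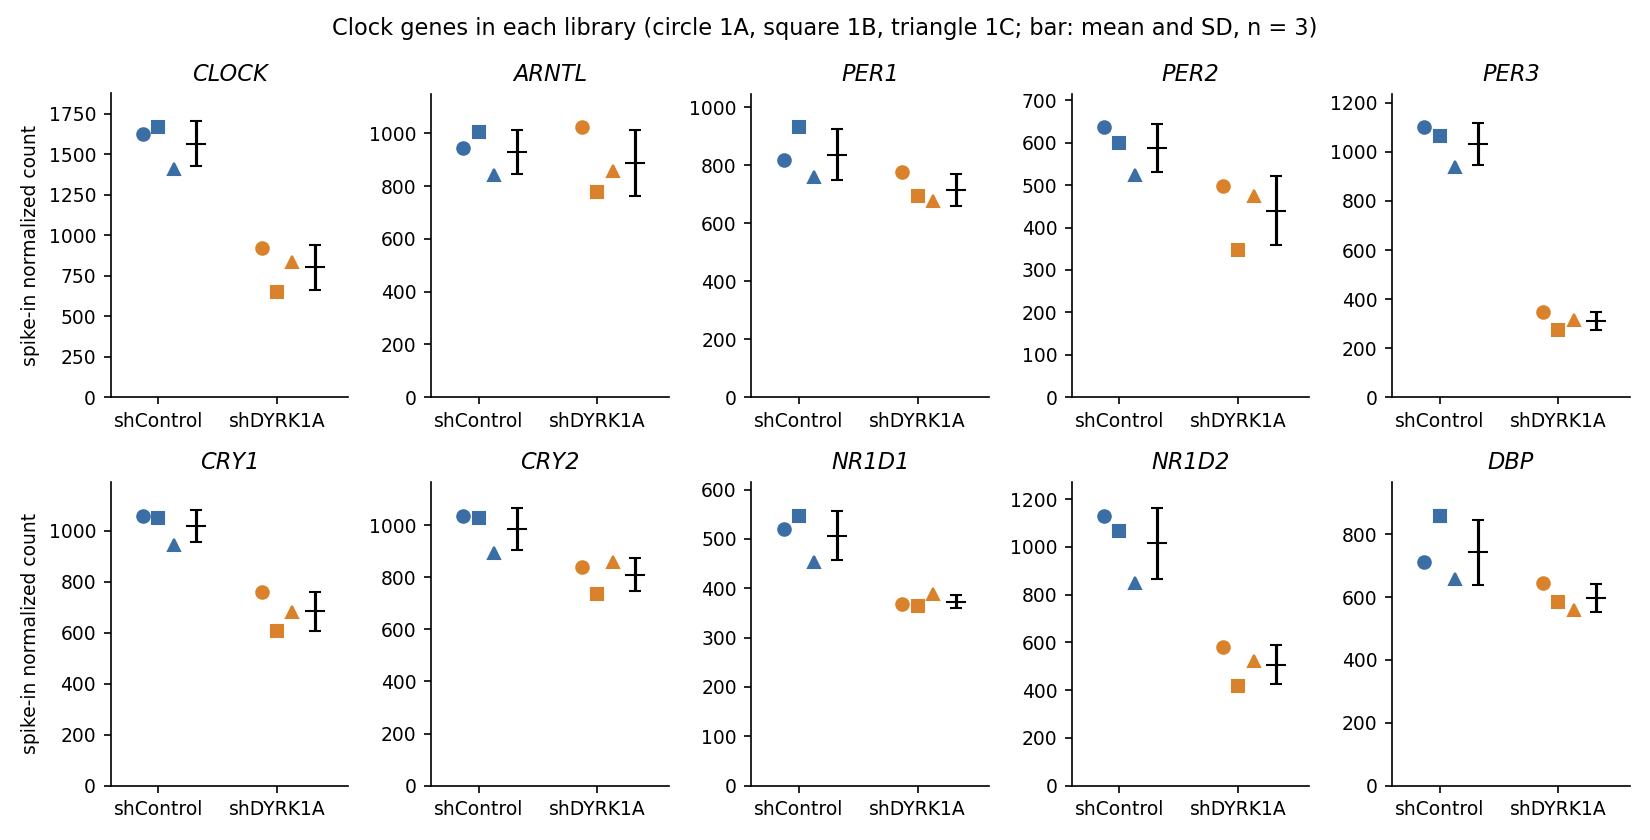
Spike-in normalized counts (vertical axes, from 0) of the 10 clock genes in each shControl and shDYRK1A library, with the mean and SD of 3 libraries as a cross and bar. The PER3 points lie between 937 and 1101 in shControl and between 273 and 347 in shDYRK1A, whereas the ARNTL points of the groups overlap.

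**Figure D2:**
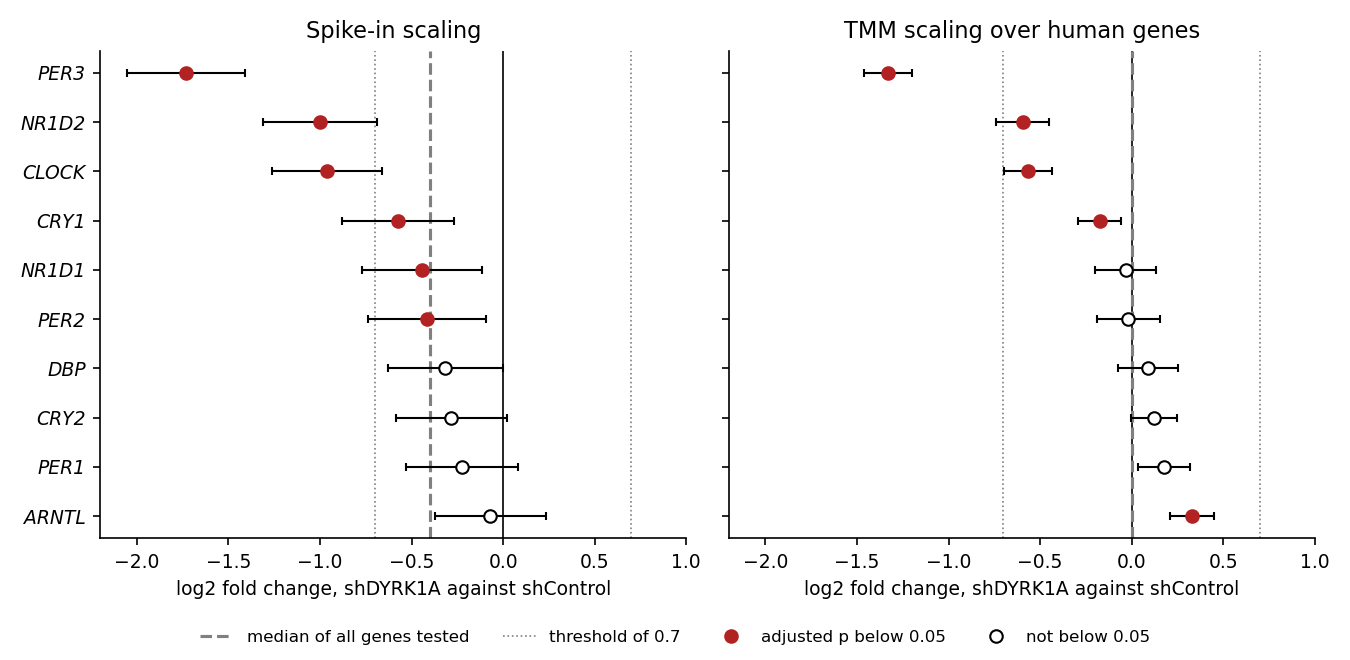
Log2 fold change of each clock gene, shDYRK1A against shControl, with its 95% interval, under spike-in scaling (left) and TMM scaling (right), the dashed line being the median of all genes tested. PER3, NR1D2, CLOCK and CRY1 lie left of the dashed line on both scales, as do NR1D1 and PER2 by little. ARNTL lies at -0.07 on the left and 0.33 on the right.

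The activators CLOCK and ARNTL, which act as a pair, differed from each other. CLOCK (ENSG00000134852, GRCh38 chromosome 4, 55427903 to 55547138, minus strand) is the partner of the pair with acetyltransferase activity. In the order 1A, 1B and 1C, which is kept for every gene, the shControl libraries held 1624, 1666 and 1406 normalized counts and the shDYRK1A libraries 922, 650.4 and 836. Every shDYRK1A library was well below every shControl library, and 1B was the lowest. CLOCK fell by 0.96 on the log2 scale (SE 0.153, adjusted p = 7.34e-09, edgeR), and its value with TMM scaling was -0.57 (SE 0.067, adjusted p = 3.37e-05). In that last reading 3.73% of all genes had a lower fold change.

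ARNTL (ENSG00000133794, chromosome 11, 13276652 to 13387266, plus strand) encodes BMAL1, the partner of CLOCK and the subunit without which the loop stops. It had 945, 1005 and 841 normalized counts in the control libraries, against 1024, 777 and 859 in shDYRK1A. The groups overlapped: shDYRK1A 1A held the highest value of all 6 libraries and shDYRK1A 1B the lowest. With spike-in scaling the log2 fold change was -0.07 (95% interval -0.37 to 0.23, adjusted p = 0.692, edgeR), and with TMM scaling the direction turned and ARNTL rose by 0.33 (SE 0.061, adjusted p = 0.000808). Without shDYRK1A 1B the spike-in value was 0.017, with the sign turned.

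The ratio of the activators within each library, which needs no scaling, showed the difference between them directly. The log2 ratio of ARNTL to CLOCK counts was -0.78, -0.73 and -0.74 in shControl and 0.15, 0.26 and 0.04 in shDYRK1A, so that ARNTL had fewer counts than CLOCK in every control library and more in every shDYRK1A library. The difference was 0.90 (exact permutation test, two-sided, p = 0.1, adjusted p = 0.125 over 5 ratios). With 3 libraries against 3 this test cannot give a p below 0.1. Raw counts are not divided by exonic length, and per kb of exon the shControl means were 138 normalized counts for ARNTL and 133 for CLOCK. Which gene had more counts therefore depends on length, and the shift of the ratio does not.

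The PER genes encode the scaffold of the repressor complex and had the widest range of fold changes among the families of the set. PER3 (ENSG00000049246, chromosome 1, 7784320 to 7845177, plus strand), whose loss is tolerated by the loop better than that of PER1 or PER2, had 1101, 1063 and 937 normalized counts in shControl and 347, 273 and 314 in shDYRK1A. The highest shDYRK1A value was far below the lowest control value. PER3 fell by 1.73 on the log2 scale (SE 0.165, adjusted p = 3.39e-23, edgeR), with a value of -1.33 under TMM scaling (SE 0.067, adjusted p = 7.63e-08). On both scales 10 of the 9697 genes, 0.103%, had a lower fold change. When each library was left out in turn the spike-in value stayed between -1.81 and -1.65. Of the exonic bases of PER3, 16.7% overlap genes on the opposite strand, but those genes (UTS2 and Z98884.1) had at most 1 raw count in any library.

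PER1 (ENSG00000179094, chromosome 17, 8140472 to 8156506, minus strand), the member that responds at once to hormones and cyclic AMP, had 818, 932 and 759 normalized counts in shControl and 779, 694 and 676 in shDYRK1A. The groups overlapped by 1 library, shDYRK1A 1A lying above shControl 1C. The log2 fold change was -0.22 (95% interval -0.53 to 0.08, adjusted p = 0.192, edgeR), and under TMM scaling it turned to 0.18 (adjusted p = 0.0524). Without shControl 1B, the highest library, the spike-in value was -0.14 (adjusted p = 0.542).

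PER2 (ENSG00000132326, chromosome 2, 238244038 to 238290102, minus strand), whose protein is the best known target of the clock kinases, had 637, 600.3 and 525 normalized counts in shControl and 499, 347 and 474 in shDYRK1A. The groups did not overlap, although the gap between shControl 1C and shDYRK1A 1A was smaller than the spread within either group. PER2 fell by 0.42 (SE 0.165, adjusted p = 0.0209, edgeR), a value next to the median of all genes, and the TMM value was -0.02 (adjusted p = 0.879). PER2 no longer passed when shControl 1A (-0.35, adjusted p = 0.142), shControl 1B (-0.40, 0.0819), shDYRK1A 1B (-0.27, 0.175) or shDYRK1A 1C (-0.47, 0.0591) was left out.

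Within the libraries, the log2 ratio of PER1 to PER2 was 0.36, 0.63 and 0.53 in shControl and 0.64, 1.0 and 0.51 in shDYRK1A, and the groups overlapped (difference 0.21, exact permutation p = 0.4). The difference was 0.068 without shDYRK1A 1B and 0.14 without shControl 1A, and 0.31 without shDYRK1A 1C (exact permutation p = 0.6, 0.8 and 0.1), where 0.1 is the smallest that 3 libraries against 2 allow. PER3 against its relatives was set out after its values had been seen, and is given without a test. The log2 ratio of PER3 to PER2 was 0.79, 0.82 and 0.84 in shControl and -0.52, -0.34 and -0.59 in shDYRK1A. The log2 ratio of PER3 to PER1 went from a mean of 0.31 ± 0.12 to -1.21 ± 0.12 (SD, n = 3 each). PER3 had more counts than PER1 and PER2 in every control library and fewer in every shDYRK1A library.

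The CRY genes encode the cryptochromes, which carry the repression of CLOCK and ARNTL. CRY1 (ENSG00000008405, chromosome 12, 106991364 to 107093829, minus strand), the stronger and later-acting repressor, had 1058, 1049.7 and 944 normalized counts in shControl and 761, 607 and 682 in shDYRK1A. All shDYRK1A libraries were lower. CRY1 fell by 0.57 (SE 0.155, adjusted p = 0.000723, edgeR), with a value of -0.18 under TMM scaling (adjusted p = 0.0246). On that scale it no longer passed without shControl 1C (-0.14, adjusted p = 0.122).

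CRY2 (ENSG00000121671, chromosome 11, 45847118 to 45883248, plus strand), the other cryptochrome, had 1036, 1028 and 894 normalized counts in shControl and 837, 737 and 857 in shDYRK1A. The groups did not overlap on this scale, but the log2 fold change of -0.28 did not pass the test (95% interval -0.58 to 0.02, adjusted p = 0.094, edgeR). It passed without shControl 1C (-0.35, adjusted p = 0.0255), and with TMM scaling it turned to 0.12 (adjusted p = 0.118; 0.074 without shDYRK1A 1C). The log2 ratio of CRY2 to CRY1 was -0.03, -0.03 and -0.08 in shControl and 0.14, 0.28 and 0.33 in shDYRK1A. CRY2 had fewer counts than CRY1 in each control library and more in each shDYRK1A library (difference 0.30, exact permutation p = 0.1, adjusted p = 0.125). That order holds for raw counts only. Per kb of exon the mean of CRY1 was above that of CRY2 in shControl (201 against 159 normalized counts) and in shDYRK1A (135 against 131).

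The REV-ERB genes also parted. NR1D2 (ENSG00000174738, chromosome 3, 23945260 to 23980618, plus strand), REV-ERB beta, had 1131, 1067 and 849 normalized counts in shControl and 581, 419 and 522 in shDYRK1A. The shDYRK1A libraries were all far below the control ones. NR1D2 fell by 1.0 on the log2 scale (SE 0.158, adjusted p = 5.48e-09, edgeR), with a value of -0.60 under TMM scaling (SE 0.073, adjusted p = 4.33e-05), where 3.18% of genes had a lower fold change.

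NR1D1 (ENSG00000126368, chromosome 17, 40092787 to 40100725, minus strand), REV-ERB alpha, had 521, 547 and 453 normalized counts in shControl and 368, 363 and 388 in shDYRK1A. The shDYRK1A libraries were lower and lay close to each other. NR1D1 fell by 0.44 (SE 0.167, adjusted p = 0.0156, edgeR), near the median of all genes, and the TMM value was -0.03 (adjusted p = 0.763). NR1D1 no longer passed without shControl 1A (-0.42, adjusted p = 0.0847), shControl 1B (-0.38, 0.0999) or shDYRK1A 1C (-0.47, 0.0629). Exons of THRA, a thyroid hormone receptor gene on the opposite strand, cover 9.49% of the exonic bases of NR1D1, and THRA had 3513 to 4133 raw counts in shControl and 3908 to 4748 in shDYRK1A. Whether the counting used the strand is not given in the sources used here. The effect of the overlap on the NR1D1 count, in either direction, was not tested.

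The log2 ratio of NR1D1 to NR1D2 was -1.12, -0.96 and -0.91 in shControl and -0.66, -0.21 and -0.43 in shDYRK1A. It was higher in each shDYRK1A library (difference 0.56, exact permutation p = 0.1, adjusted p = 0.125). The log2 ratio of NR1D1 to ARNTL, a repressor and the gene it is known to repress, was -0.86, -0.88 and -0.89 in shControl and -1.48, -1.10 and -1.15 in shDYRK1A. It was lower in each shDYRK1A library (difference -0.36, exact permutation p = 0.1, adjusted p = 0.125).

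**Figure D3:**
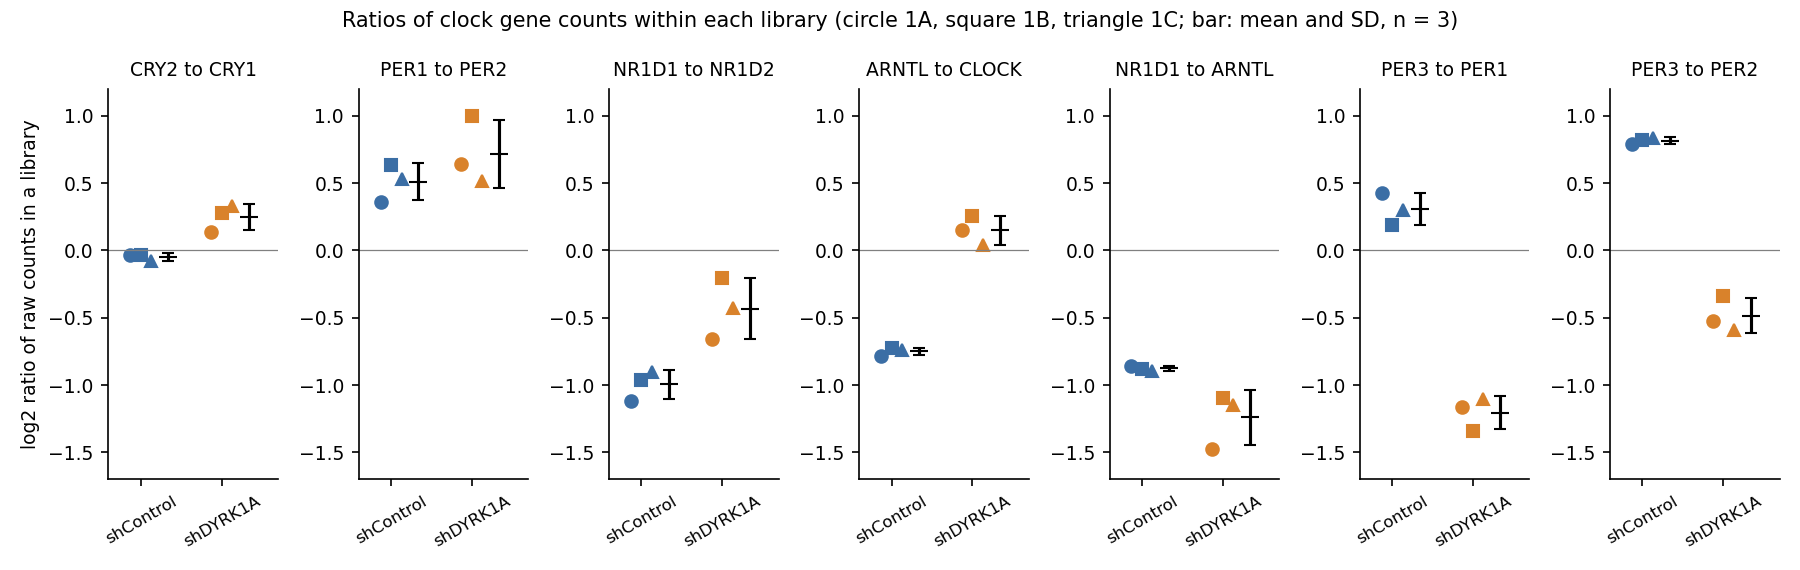
Log2 ratios of the raw counts of pairs of clock genes within each library (vertical axes), with the mean and SD of 3 libraries as a cross and bar. The ratio of ARNTL to CLOCK moves from -0.75 to 0.15 and that of PER3 to PER2 from 0.82 to -0.49 between the group means, whereas the groups overlap for PER1 to PER2.

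DBP (ENSG00000105516, chromosome 19, 48630030 to 48637438, minus strand), a PAR bZIP factor whose RNA is one of the strongest outputs of CLOCK and ARNTL, had 711, 859 and 656 normalized counts in shControl and 646, 584 and 559 in shDYRK1A. The groups did not overlap, but shDYRK1A 1A was only just below shControl 1C. The log2 fold change of -0.32 did not pass the test (95% interval -0.63 to -0.0031, adjusted p = 0.07, edgeR), and with TMM scaling the sign turned, to 0.09 (adjusted p = 0.387). It passed without shControl 1C (-0.40, adjusted p = 0.0148) or shDYRK1A 1A (-0.38, 0.0451), and was smaller without shControl 1B (-0.20, 0.389). The TMM value was 0.019 without shControl 1A, 0.036 without shDYRK1A 1B and 0.16 without shControl 1B. Exons of SPHK2 on the opposite strand cover 10.1% of the exonic bases of DBP. SPHK2 had 809, 1016 and 935 raw counts in shControl and 1220, 1026 and 1296 in shDYRK1A. Those raw counts are not divided by the size factors, as the values of DBP are, so they do not compare RNA per infected cell. As for NR1D1, the strand setting of the counting is not given, and the effect of the overlap on the DBP count was not tested.

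As for genes in general, shControl 1C was the lowest control library (10 of the 10 clock genes, beside 99.1% of all genes tested) and shDYRK1A 1B the lowest shDYRK1A library (8 of the 10, beside 79.8%). The fold changes of PER3, NR1D2 and CLOCK stayed below -0.7, with adjusted p below 0.05, when any single library was left out under spike-in scaling.

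Levels were also divided by the exonic length of each gene, with all its annotated exons merged. In control cells the 10 ran from 85.4 ± 8.30 normalized counts per kb for PER2 to 201 ± 12.5 for CRY1 (SD, n = 3). Merged exons can be longer than any single transcript, and those of DBP come to 6544 bases in a gene at 48630030 to 48637438. The levels per kb and their order depend on that length, and no other was tried. The order from high to low was CRY1, NR1D1, NR1D2, CRY2, ARNTL, CLOCK, PER3, PER1, DBP and PER2. Neighbours in that order differed by less than the larger of their SDs, except for CRY1 above NR1D1, CRY2 above ARNTL and DBP above PER2. In shDYRK1A cells the order was CRY1, NR1D1, ARNTL, CRY2, PER1, DBP, NR1D2, CLOCK, PER2 and PER3, from 135 ± 15.2 to 38.4 ± 4.55 normalized counts per kb. Here the gaps below CRY2, PER1, NR1D2 and PER2 were larger than the SDs of the genes on either side, and the first 4 genes, between 131 and 135, could not be ranked. NR1D2, the third in control cells at 174 ± 25.4, was the seventh in shDYRK1A cells at 87.2 ± 14.1, and PER3 moved from the seventh place to the last.

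**Figure D4:**
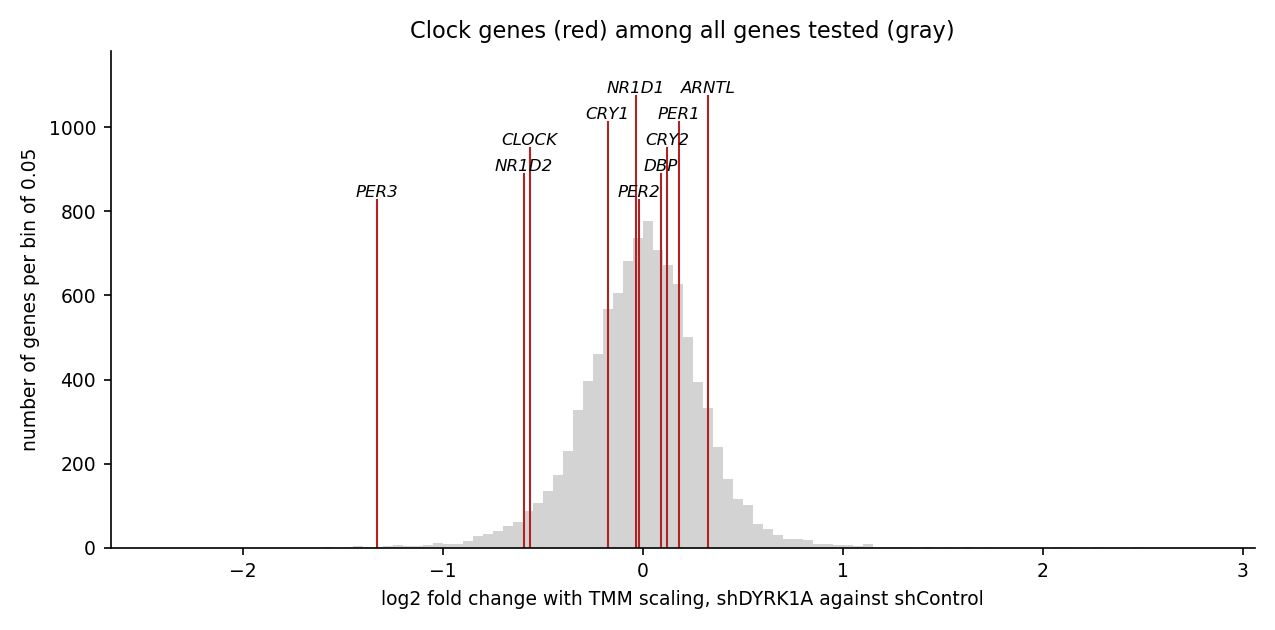
Histogram of the log2 fold change (horizontal axis, TMM scaling, bins of 0.05) of the 9697 genes tested, with a red line at the value of each clock gene. PER3 at -1.33 lies in the lower tail, NR1D2 and CLOCK at -0.60 and -0.57 lie on its shoulder, and the other members lie between -0.18 and 0.33, within the bulk.

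The promoters of the clock genes were taken from the RefSeq table on GRCh38.p14, as windows of 300 bases from 250 before to 50 after each transcription start, and all 10 genes matched, with 15 windows in all. They were searched on both strands for the E-box CACGTG, the E-box-like element CACGTT, the D-boxes TTATGTAA and TTACGTAA, the nuclear receptor half-site AGGTCA, the cyclic AMP element TGACGTCA and the palindrome TCTCGCGAGA that the study ties to DYRK1A. Windows of the 3 genes that were called lower, and of ARNTL, the partner of CLOCK that was not, are shown because they hold matches to these elements. Each of these genes also has another window, which holds no match and is not shown. The windows shown are written 5′ to 3′ on the strand of the gene, with matches in capitals. The window of PER3 (chr1:7784041-7784340, plus strand) holds a D-box, that of the second start of NR1D2 (chr3:23945871-23946170, plus strand) a D-box and 2 E-boxes, that of the second start of CLOCK (chr4:55545883-55546182, minus strand) an E-box-like element, and that of ARNTL (chr11:13277540-13277839, plus strand) a half-site downstream of the start.
PER3: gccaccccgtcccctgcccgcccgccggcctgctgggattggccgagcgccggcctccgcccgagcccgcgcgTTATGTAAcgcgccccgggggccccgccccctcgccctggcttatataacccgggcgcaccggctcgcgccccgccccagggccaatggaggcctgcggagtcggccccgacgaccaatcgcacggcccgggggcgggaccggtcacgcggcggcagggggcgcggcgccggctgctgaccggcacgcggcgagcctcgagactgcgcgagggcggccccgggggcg
NR1D2: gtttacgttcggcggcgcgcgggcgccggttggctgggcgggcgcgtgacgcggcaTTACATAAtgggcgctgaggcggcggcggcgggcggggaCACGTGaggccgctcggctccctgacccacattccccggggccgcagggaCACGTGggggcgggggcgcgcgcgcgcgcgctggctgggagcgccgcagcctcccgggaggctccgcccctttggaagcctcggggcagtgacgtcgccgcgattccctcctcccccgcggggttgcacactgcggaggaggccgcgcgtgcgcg
CLOCK: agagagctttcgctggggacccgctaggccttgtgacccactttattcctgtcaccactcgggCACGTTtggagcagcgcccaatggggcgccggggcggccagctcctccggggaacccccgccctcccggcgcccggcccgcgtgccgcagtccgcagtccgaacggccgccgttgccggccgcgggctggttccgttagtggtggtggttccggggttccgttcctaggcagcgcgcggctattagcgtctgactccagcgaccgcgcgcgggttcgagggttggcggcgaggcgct
ARNTL: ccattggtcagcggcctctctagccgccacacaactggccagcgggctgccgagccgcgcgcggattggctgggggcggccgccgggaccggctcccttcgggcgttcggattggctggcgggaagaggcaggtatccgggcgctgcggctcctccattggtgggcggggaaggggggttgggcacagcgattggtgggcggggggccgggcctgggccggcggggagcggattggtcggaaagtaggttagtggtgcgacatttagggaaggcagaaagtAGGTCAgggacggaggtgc

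No match overlapped another in these windows. The D-box was found at 3 of the 10 genes (PER2, PER3 and NR1D2), against 1.27% of the 27305 genes with a window, and the E-box-like element at 5 (CRY1, CRY2, PER2, CLOCK and NR1D1), against 6.44%. The E-box was found at 2 (PER1 and NR1D2), against 8.77%, and the half-site at 3 (CRY2, PER1 and ARNTL), against 16.5%. The cyclic AMP element and the palindrome were found at none of the 10, against 2.25% and 0.505%. Over all 35116 windows the shares were 7.26% for the E-box, 5.34% for the E-box-like element, 1.01% for the D-box, 13.8% for the half-site, 1.85% for the cyclic AMP element and 0.424% for the palindrome. Among the genes with a D-box, PER3 and NR1D2 were called lower and PER2 was near the median of all genes. The windows of PER3 are 80.7% and 81.0% G and C, that of PER2 is 80.3% and those of NR1D2 are 72.3% and 77.3%. The windows of the other members run from 46.3% for CRY2 to 73.3% for CLOCK. The median over all windows is 58.7%. A match is a string of letters in a window, and no binding was measured in these libraries.

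**Figure D5:**
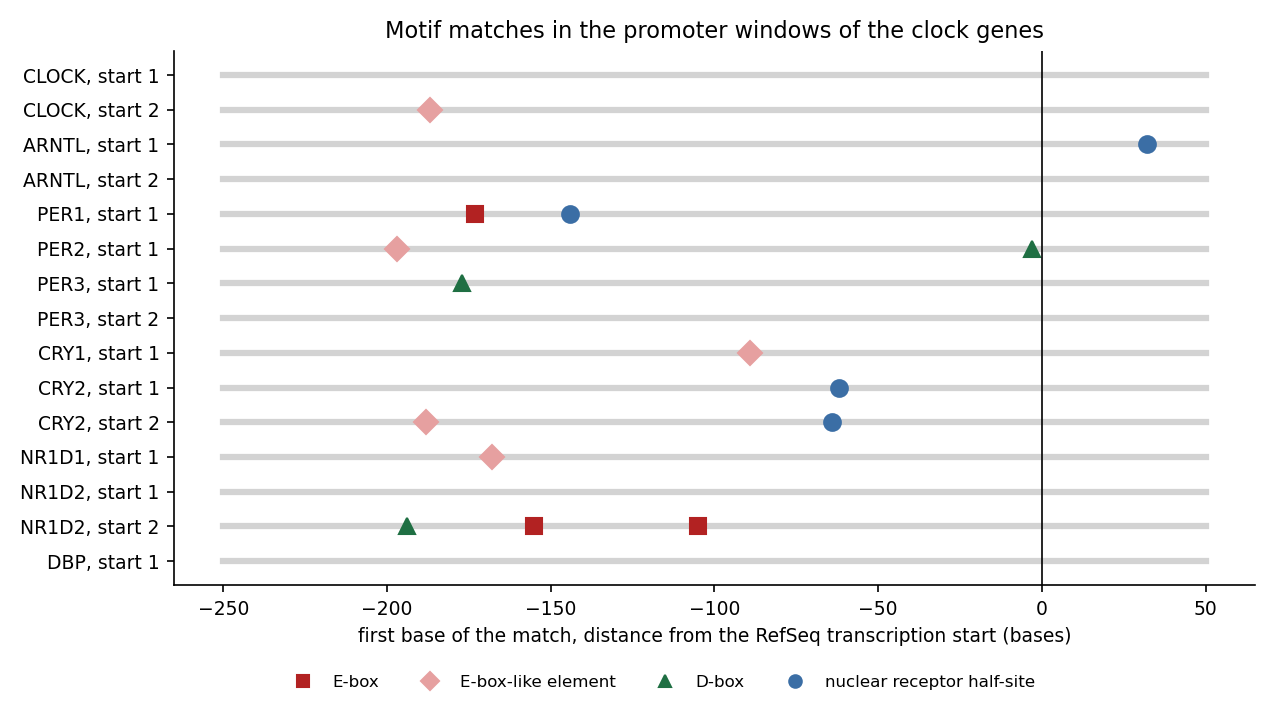
Positions of the motif matches (first base, horizontal axis, in bases from the RefSeq start) in the 15 promoter windows of the 10 clock genes, 1 gray bar per window. PER3, PER2 and NR1D2 hold the D-boxes, at -177, -3 and -194, and the window of DBP holds no match.

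The genes around the loop were taken from 4 lists of 60 genes in all, of which 45 passed the expression filter and 15 did not. With spike-in scaling 34 of the 45 passed as lower and 0 as higher, beside 63.4% and 1.08% of all genes, and 8 were called as lower, beside 14.3%. With TMM scaling 16 passed as lower and 9 as higher, beside 28.6% and 27.3%.

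Among the partners of the loop (relatives of the activators, ROR receptors, BHLHE and PAR bZIP factors), 7 of 13 were tested. With spike-in scaling 7 passed as lower, beside 63.4% of all genes, with a median log2 fold change of -0.45 against -0.40 for all genes. None was called, beside 14.3%. With TMM scaling 2 passed as lower and 0 as higher, beside 28.6% and 27.3% of all genes. Their median on that scale was -0.045, against 0.00 for all genes. The lowest with spike-in scaling was TIPIN, the partner of TIMELESS, at -0.68 (adjusted p = 6.06e-05, edgeR), with a TMM value of -0.27 (adjusted p = 0.0306). The highest was ARNTL2, the close relative of ARNTL, at -0.37 (adjusted p = 0.0263), which turned to 0.04 with TMM scaling (adjusted p = 0.707). BHLHE41 (DEC2), a repressor of CLOCK and ARNTL that was under the filter and was picked out after its values were seen, had 463, 422 and 416 normalized counts in shControl and 205, 166 and 182 in shDYRK1A.

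Of 16 kinases and phosphatases that act on the PER and CRY proteins, 14 were tested. With spike-in scaling 10 passed as lower, beside 63.4% of all genes. The 1 that was called, beside 14.3%, was PPP1CB, a catalytic subunit of protein phosphatase 1, at -0.70 (adjusted p = 5.18e-06, edgeR). Its counts were 3760 ± 397 in shControl and 2306 ± 297 in shDYRK1A (SD, n = 3 each). With TMM scaling 4 passed as lower and 3 as higher, beside 28.6% and 27.3% of all genes. Those 3, named after their values were seen, were CSNK1D, the casein kinase that sets the pace of PER turnover (0.41, adjusted p = 7.67e-06), GSK3A (0.37, adjusted p = 0.000251) and PPP1CA (0.32, adjusted p = 0.000322). Their spike-in values were 0.01, -0.03 and -0.09 (adjusted p = 0.938, 0.88 and 0.549).

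Of 19 genes for ubiquitin ligases, deubiquitinases, deacetylases and coregulators of the loop, 17 were tested. With spike-in scaling 12 passed as lower and 3 were called, beside 63.4% and 14.3% of all genes. CUL4A, the cullin of a ligase that acts on CRY1, had 6356 ± 696 normalized counts in shControl and 2835 ± 366 in shDYRK1A, a fall of 1.16 (SE 0.139, adjusted p = 5.49e-15, edgeR). SIRT1, a deacetylase that binds CLOCK and ARNTL, went from 827 ± 111 to 381 ± 85.6, a fall of 1.12 (SE 0.164, adjusted p = 3.10e-10). USP7, which removes ubiquitin from the cryptochromes, fell by 0.81 (adjusted p = 3.40e-08). CUL4A and SIRT1 were also called with TMM scaling, at -0.76 and -0.72, the only genes of the 4 lists that were, beside 1.93% of all genes. On that scale 6 of the 17 passed as lower and 4 as higher, beside 28.6% and 27.3% of all genes.

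Of 12 outputs, genes known to follow the clock or the hormones that set it, 7 were tested. With spike-in scaling 5 passed as lower, 4 of them called, beside 63.4% and 14.3% of all genes. FKBP5, a glucocorticoid-induced chaperone, went from 1504 ± 135 to 703 ± 74.7 normalized counts (SD, n = 3 each), with a log2 fold change of -1.10 (adjusted p = 4.82e-11, edgeR). NAMPT, the enzyme of NAD salvage, had a value of -0.88 (adjusted p = 7.93e-10) and WEE1, a kinase that holds back mitosis, a value of -0.86 (adjusted p = 2.07e-07). TSC22D3 (GILZ), another glucocorticoid-induced gene, stood at -0.75 (adjusted p = 4.64e-06). With TMM scaling these 4 also passed as lower, at -0.70, -0.48, -0.46 and -0.35, beside 28.6% of all genes. KLF9 and CDKN1A passed as higher on that scale only (0.47 and 0.64, adjusted p = 9.74e-06 and 9.28e-06), with spike-in values of 0.07 and 0.23 that did not pass (adjusted p = 0.672 and 0.141). These last 2 were named after their values were seen, and 27.3% of all genes passed as higher with TMM scaling. The median of the 7 outputs was -0.75 with spike-in scaling and -0.35 with TMM scaling, against -0.40 and 0.00 for all genes.

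The 4 glioblastoma markers that were tested all passed as lower with spike-in scaling, VIM and FN1 being called at -0.72 and -0.82, beside 63.4% and 14.3% of all genes. With TMM scaling 2 of the 4 passed as lower, beside 28.6% of all genes, and none was called. The list summed to 4410 to 4460 CPM in shControl and 3920 to 4100 CPM in shDYRK1A.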

How the data were processed

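The members and all gene lists were chosen with earlier results of these data known. The authors deposited raw gene counts per library (58174 identifiers, stranded paired-end mRNA, STAR and DESeq2, hg38 and dm3 in the submitters' processing notes, versions and strand setting not given in the sources used here) and a table of normalized signal, which is the counts divided by 1 constant per library (0.821 to 1.21), derived per the study's methods from the fly reads. The authors' deposited table of log2 fold changes, scores and p-values was not used. Genes above 10 mean normalized CPM (9697) entered the quasi-likelihood test of edgeR 4.0.16 (robust, R 4.3.3) with those constants as size factors, Benjamini-Hochberg adjusted, with no gene set test. A call needed a log2 fold change beyond 0.7 at an adjusted p below 0.05. Ratios are log2 of raw counts plus 0.5. Tested on simulated counts for this comparison over 9697 genes, 200 of 200 changed genes were recovered and 12 unchanged genes passed. Only those 200 genes were changed there. Recovery when most genes are lower, as under spike-in scaling here, was not tested. Named genes are the 10 members, DYRK1A and, per list, the called genes or, with none called, the lowest and highest. Exons came from GENCODE v29, whose coordinates equal those of the members. Promoters came from RefSeq, searched in Python 3.11.15. The alternatives tried were scaling by TMM or median of ratios, DESeq2 1.42.0, filterByExpr, no filter beyond 1 count, a replicate block, each library left out, and 5 added to counts in ratios. The block and left-out libraries under TMM scaling were added after seeing the data.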

Additional observations from a re-analysis of the deposited data

How the results depend on the processing

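The spike-in scale decides the sign of 4 members. Under TMM scaling CRY2, PER1, ARNTL and DBP turned to 0.12, 0.18, 0.33 and 0.089, and under median-of-ratios scaling to 0.13, 0.18, 0.33 and 0.092. There the members that passed as higher numbered 1 and 2, those called as lower 1 and 1, the 45 pathway genes that passed as lower 16 and 16, and those that passed as higher 9 and 9. The difference of the median of the 10 from that of all genes was -0.061 with filterByExpr and -0.094 with no filter beyond 1 count, and -0.073 to 0.0031 when each library was left out. In both filter settings the fold changes of the members stayed as in the main fit, such as -0.57 for CRY1 and -1.73 for PER3. Only the median of all genes differed there. The cause of the shifts between left-out libraries was not tested. With DESeq2, CRY2 (-0.28, adjusted p = 0.0437) and DBP (-0.32, adjusted p = 0.0432) passed as well.

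When each library was left out under spike-in scaling, 4 to 8 members and 24 to 38 pathway genes passed as lower, and 3 members were called each time. The value of ARNTL ranged from -0.18 to 0.017, turning without shDYRK1A 1B. Under TMM scaling NR1D1 ranged from -0.079 to 0.046, turning without shDYRK1A 1A, PER2 from -0.085 to 0.069, turning without shDYRK1A 1B, and the members that passed as higher numbered 1 to 2, PER1 joining ARNTL without shDYRK1A 1C (0.22, adjusted p = 0.0396).

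Libraries with the same name correlated at 0.0729 to 0.151 in their deviations from the group means and those with other names at -0.0939 to -0.0143. Each library correlated best with its own name, though not every such value was above 0.1. Deviations from a group mean cancel within the group, so positive values for same names force negative ones among other names. The contrast is therefore only a hint from the data, and the labels do not state a pairing. With the replicate name as a block, 6 members passed as lower and 3 were called under spike-in scaling, and under TMM scaling 2 passed as higher, PER1 joining ARNTL (0.18, adjusted p = 0.0354). Of 120 refits of single members 95 kept direction and side of the threshold. The 3 libraries per group limit the precision: the interval of a spike-in fold change spans about 0.3 on either side.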

Other observations

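The 6-base word TGAAGT, which an earlier scan of these same data had singled out in 3′ untranslated regions (UTRs) and which is therefore no independent evidence, was counted in the longest 3′ UTR of each clock gene (GENCODE v29). It was present in CRY1 (1 site), PER3 (2 sites), CLOCK (2 sites) and NR1D2 (2 sites), the 4 members that passed as lower with TMM scaling, and in none of the other 6. The 3′ UTR of these 4 genes is 638, 2422, 7512 and 3199 bases long, and those of the other 6 run from 296 to 2337 bases. The word is common: 46.5% of 9365 tested genes with a 3′ UTR hold it, and those genes have a median 3′ UTR of 2799 bases against 1083 bases for the rest. Their median log2 fold change with TMM scaling was -0.08, against 0.06 for genes without it. UTR length moves with the word, and its part in the difference was not tested. The sites of PER3 and NR1D2 are shown with the word in capitals, on GRCh38, PER3 at chr1:7842832-7842855 and chr1:7844088-7844111 (plus strand) and NR1D2 at chr3:23977654-23977677 and chr3:23979385-23979408 (plus strand).
PER3 site 1: aaatgaccaTGAAGTtatcattga
PER3 site 2: tttctccttTGAAGTtttacagct
NR1D2 site 1: aagttacacTGAAGTataatcaca
NR1D2 site 2: acagcttttTGAAGTaatgaaaac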
